A study of Mus musculus with 11 samples.

Results

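The 10 genes of bone morphogenetic protein (BMP) signalling described here were followed through neural stem cell cultures exposed to 4HBP. They were the 4 Id genes (Id1, Id2, Id3 and Id4), the ligands Bmp2 and Bmp4, the type I receptor Bmpr1a, the inhibitory SMADs Smad6 and Smad7, and the secreted antagonist Nog. They were chosen by name from the pathway, matched to gene identifiers through the GENCODE mouse annotation, and made up 10 of the 53801 genes in each table. A list of 44 other genes of the pathway was read beside them.

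RNA was sequenced in 11 libraries of primary neural stem cells (NSCs) taken from the hippocampus of mouse embryos. The mice of the study were C57BL/6. All 4 groups were cultured for 7 days in DMEM/F12 with glutaMAX, B27 and antibiotics. The 2 proliferation groups, 3 libraries with 1 µM 4HBP and 3 with EtOH as the vehicle control, also received 20 ng/ml EGF and 20 ng/ml bFGF with 1% B27. The 2 differentiation groups, 3 libraries with 1 µM 4HBP and 2 with EtOH, received neither growth factor and 2% B27. The labels spell 4HBP out as 4-Hydroxybenzoic acid, whereas the study's methods use the same abbreviation for 4-hydroxybenzophenone, so the abbreviation is used here. No source said whether the libraries of a group came from separate cultures or litters, so p-values measure the spread between libraries, which may be technical. Both growth factor withdrawal and the B27 content differ between the media and cannot be told apart.

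BMP ligands bind pairs of type I and type II receptor kinases at the cell surface, which phosphorylate SMAD1, SMAD5 and SMAD9. These join SMAD4 and enter the nucleus, where Id genes are among their best known direct targets. Id proteins are helix-loop-helix proteins without a DNA-binding domain. They bind E proteins such as TCF3, TCF4 and TCF12 and keep them from pairing with the transcription factors that drive neuronal and oligodendrocyte fates. The pathway restrains itself at several levels, since noggin (Nog) captures ligands outside the cell and SMAD6 and SMAD7, themselves target genes, block the signal inside it. In the hippocampus BMP signalling is known for holding stem cells quiescent and for favouring astrocytes among their progeny.

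Each library held between 20822921 and 23438463 estimated counts assigned to genes, so that 3 counts, taken as the limit of detection, corresponded to 0.128 to 0.144 CPM, the count scaled to a common library total. This limit and all intervals on single counts cover counting error only. All 10 genes passed the filter on low counts in every comparison, but Smad6 and Bmp2 were near the limit in proliferation medium, at 1 to 16 and 3 to 15 counts per library. Replicate 3 of the 4HBP libraries in proliferation medium stood apart from replicates 1 and 2, with a mean chi-square per gene of 23.5 and 21.2 against 5.24 between those 2, and the differentiation libraries differed from each other less (2.56 to 2.93). The 5 neural stem cell and radial glia markers Nes, Sox2, Pax6, Fabp7 and Vim were above 3 counts in all 11 libraries, and the cultures also expressed all 4 astrocyte, all 4 oligodendrocyte lineage and all 4 neuron markers. Of the 4 endothelial markers, Cldn5 and Cdh5 were at 0 in all 11 libraries, Pecam1 had 3.03 to 12.04 counts and Tek 0 to 4. Of the 5 microglia markers, P2ry12 had 29 to 70 counts in proliferation and 13 to 22 in differentiation medium, and the others at most 8. In bulk RNA, fewer cells of a type and less RNA per cell cannot be told apart.

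Levels of different genes were compared within a group as TPM (transcripts scaled to a common total), which corrects for transcript length. Id2 was the highest of the 10 genes in all 4 groups, with a mean of 192 ± 8.35 TPM (SD, n = 3) in EtOH proliferation medium and 265 ± 12.5 TPM (SD, n = 2) in EtOH differentiation medium. Among the summed TPM of the 4 Id genes, Id2 made up 58.5% to 68.1% of the EtOH proliferation libraries and 51.4% to 52.1% of the EtOH differentiation libraries. In EtOH proliferation medium the order went on with Bmpr1a at 84.3 TPM, Id3 at 56.4 TPM, Id1 at 38.0 TPM, Id4 at 16.3 TPM and Bmp4 at 15.6 TPM. The ranges of Id3 and Id1 overlapped, as did those of Id4 and Bmp4. Nog at 3.15 TPM and Smad7 at 2.61 TPM, which overlapped each other, came above Smad6 at 0.447 TPM and Bmp2 at 0.197 TPM. In EtOH differentiation medium Id3 at 114 TPM and Bmp4 at 109 TPM, with overlapping ranges, came after Id2. Bmpr1a at 83.9 TPM, Id4 at 73.1 TPM and Id1 at 60.5 TPM followed without overlap. Id4 thus went from 4.48% to 6.77% of the summed Id TPM to 13.5% to 15.01%.

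Between media the levels were compared as CPM of the library total, because the mitochondrial gene mt-Atp8 took 13.0% to 16.0% of all TPM in the proliferation libraries and 4.48% to 4.79% in the differentiation libraries. Across 11315 genes with more than 50 counts in every library, the median log2 change from proliferation to differentiation medium in EtOH was 0.30 in TPM and 0.02 in CPM. The level of each of the 10 genes in each library is shown in the plot of CPM by group.

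**Figure D1:**
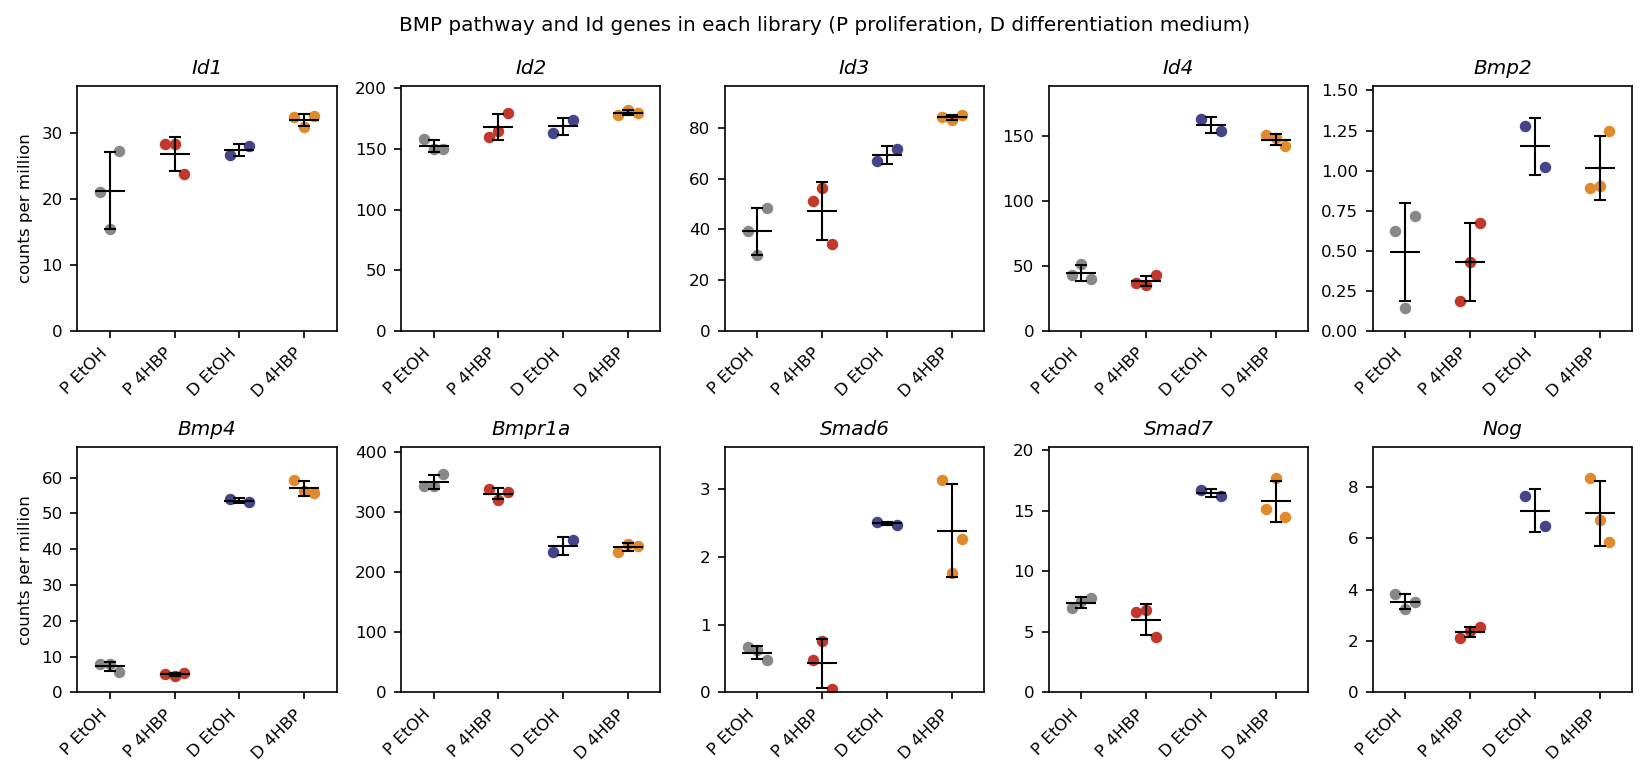
CPM of each of the 10 genes (y axis, linear, from 0) in each library, by group (P proliferation, D differentiation medium); points are libraries, the horizontal line is the group mean and the bars are ± 1 SD (n = 3, and n = 2 for EtOH in differentiation medium). Bmp4, Id4, Smad6, Smad7 and Nog sit higher in every differentiation library than in any proliferation library, and Bmpr1a sits lower on this scale.

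The first comparison asked how the pathway differed between the media in the absence of 4HBP. Differentiation medium held more Bmp4, Id4, Smad6, Smad7, Nog and Id3 RNA and, relative to the library total but not in TPM, less Bmpr1a RNA than proliferation medium, and Id1, Id2 and Bmp2 did not pass the test. Thus 7 of the 10 genes passed, 6 higher and 1 lower, where 61.4% of all 15920 genes tested passed (edgeR's quasi-likelihood test, Benjamini-Hochberg adjusted p under 0.05). The share of the 10 was near this background. Their median log2 change was 0.99, against 0.03 for all genes.

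Bmp4, a secreted ligand of the pathway (GRCm38 chr14:46383520-46390669, minus strand), changed most of the 10. In proliferation medium with EtOH it stood at 8.03, 7.95 and 5.78 CPM. In differentiation medium with EtOH it stood at 54.0 and 53.0 CPM. Every differentiation library lay far above every proliferation library, and the log2 change was 2.80 (SE 0.11, 95% interval 2.57 to 3.02, adjusted p = 4.1e-10 by edgeR), a 6.94-fold difference. The antisense gene Gm15222 overlaps Bmp4 and reached 164 counts in one library. Whether counting used strand was not stated.

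Bmp2, the ligand closest to Bmp4 in sequence (chr2:133552159-133562885, plus strand), was near the limit of detection. Its counts in EtOH were 13, 3 and 15 in the proliferation libraries and 28 and 24 in the differentiation libraries. The groups did not overlap, but the log2 change of 1.12 (SE 0.52, interval -0.01 to 2.26) did not pass the test (adjusted p = 0.079 by edgeR).

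Id4 (chr13:48261228-48266026, plus strand), the Id gene known for its role in astrocytes and in quiescent neural stem cells, was 42.6, 51.5 and 39.6 CPM in proliferation medium and 163 and 154 CPM in differentiation medium with EtOH. It rose by 1.74 on the log2 scale (SE 0.09, adjusted p = 9.9e-09 by edgeR), a 3.34-fold difference. Id3 (chr4:136143497-136145755, plus strand) was 39.3, 29.9 and 48.6 CPM against 66.9 and 71.9 CPM. It rose by 0.74 (SE 0.20, adjusted p = 0.006 by edgeR), so that of the 4 Id genes these 2 passed the test.

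Id1 (chr2:152736251-152737410, plus strand), a widely used readout of BMP signalling, did not pass. Its EtOH libraries were at 21.02, 15.5 and 27.2 CPM in proliferation medium and at 26.7 and 28.0 CPM in differentiation medium, and the groups overlapped. The log2 change was 0.28 (SE 0.17, interval -0.09 to 0.65, adjusted p = 0.177 by edgeR). Id2 (chr12:25093799-25097140, minus strand), the most abundant Id gene, was at 158, 150 and 149.6 CPM against 164 and 174 CPM. The groups did not overlap, but the change was small at 0.06 (interval -0.07 to 0.18, adjusted p = 0.394 by edgeR).

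Bmpr1a, the type I receptor through which BMP2 and BMP4 signal (chr14:34410734-34503341, minus strand), was the only one of the 10 to fall. It stood at 344, 343.6 and 364 CPM in proliferation medium and at 233 and 254 CPM in differentiation medium with EtOH, a log2 change of -0.61 (SE 0.07, adjusted p = 4.4e-06 by edgeR). On the TPM scale the change was -0.01 (adjusted p = 0.943, limma), and -0.38 (adjusted p = 0.002) once each library was centred on its median gene, so the fall is relative to the other genes of the library.

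The inhibitors rose together. Smad7 (chr18:75367529-75395935, plus strand) was 6.93, 7.52 and 7.78 CPM against 16.7 and 16.2 CPM in EtOH, a log2 change of 1.063 (SE 0.16, adjusted p = 8.3e-05 by edgeR). Smad6 (chr9:63953076-64022059, minus strand), at 14, 13 and 10 counts in proliferation medium and 55 and 58 counts in differentiation medium, rose by 1.99 (SE 0.48, adjusted p = 0.0032 by edgeR). Nog (chr11:89300638-89302332, minus strand) was 3.82, 3.24 and 3.53 CPM against 7.66 and 6.49 CPM and rose by 0.91 (SE 0.17, adjusted p = 4.9e-04 by edgeR). No differentiation library overlapped a proliferation library for any of these 3 inhibitors. In all, the groups were apart for 9 of the 10 genes, as they were for 76.6% of all genes tested.

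Under 4HBP the same comparison between media contrasted the other 6 libraries. It came from the same fit of all 11 libraries as the EtOH comparison and shared its estimate of the spread. Here 8 of the 10 genes passed the test (7 higher and 1 lower), where 67.2% of all genes tested passed. Bmp4 stood at 5.06, 4.67 and 5.28 CPM in proliferation medium with 4HBP and at 59.4, 56.1 and 55.6 CPM in differentiation medium with 4HBP, a log2 change of 3.47 (SE 0.10, adjusted p = 3.6e-11 by edgeR) or 11.1-fold. Id4 rose by 1.90, Smad6 by 2.41, Nog by 1.53, Smad7 by 1.35 and Id3 by 0.79, and Bmpr1a fell by 0.50, on the log2 scale. Bmp2 rose by 1.20 (SE 0.50, adjusted p = 0.048 by edgeR), a call that was lost when any 1 of 5 of the 6 libraries was left out (adjusted p 0.066 to 0.155). Id1 at 0.21 (adjusted p = 0.240) and Id2 at 0.06 (adjusted p = 0.322) again did not pass by edgeR. The plot of the differences between media sets both comparisons side by side.

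**Figure D2:**
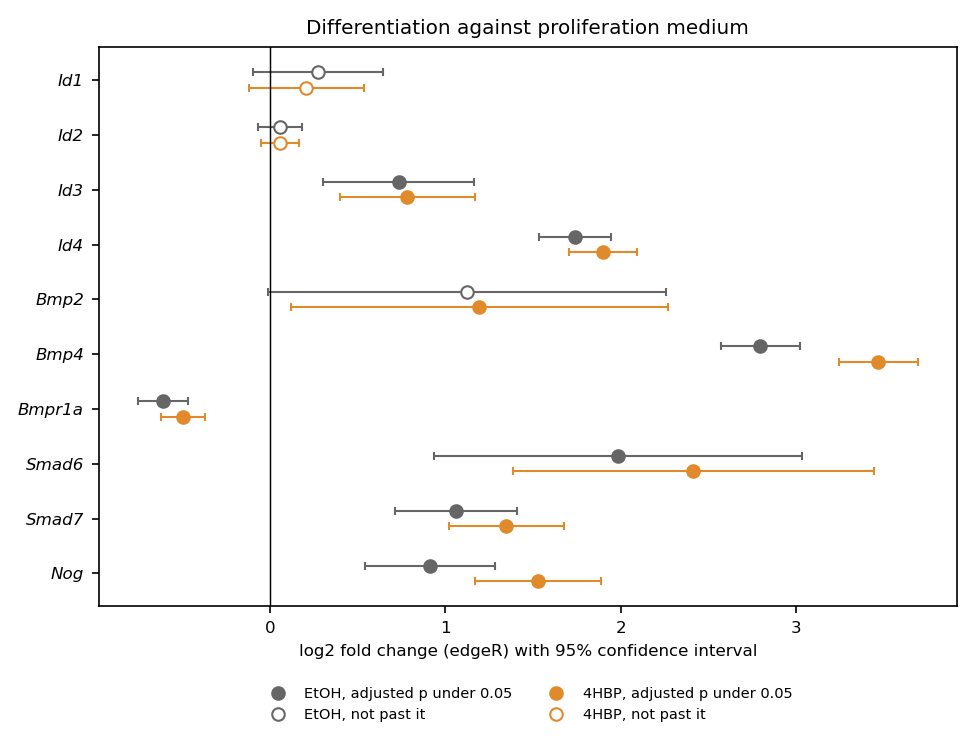
Log2 fold change of differentiation against proliferation medium (x axis) for each of the 10 genes, in EtOH (grey) and under 4HBP (orange), with 95% confidence intervals; filled points passed an adjusted p of 0.05. Bmp4 lies at 2.80 and 3.47, and Id1 and Id2 have intervals that include 0 in both.

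Cell type markers moved with the medium. The summed CPM of the 5 neural stem cell markers was 4262 to 5051 in EtOH proliferation libraries and 1577 to 1611 in EtOH differentiation libraries. The 4 oligodendrocyte lineage markers went from 1871 to 2304 CPM to 3977 to 4293 CPM, with summed ranges that did not overlap. Mbp, at a mean of 1370 CPM and 3281 CPM, made up most of this sum. It rose by 1.17 on the log2 scale and Sox10 by 0.45, whereas Olig2 (0.18) and Pdgfra (0.185) did not pass. The sums of the 4 astrocyte markers (3417 to 4255 CPM and 3656 to 3908 CPM) and of the 4 neuron markers (915.5 to 1012 CPM and 920.5 to 947 CPM) overlapped, but their members moved in opposite directions. Gfap fell by 0.62 on the log2 scale, whereas Aqp4 rose by 0.27, Aldoc by 0.64 and S100b by 1.07, and Map2 fell by 0.33, whereas Dcx rose by 0.55 and Rbfox3 by 0.74. Tubb3, at 0.35, did not pass. The sum of the 4 mesenchyme and pericyte markers went from 0.478 to 1.48 CPM to 28.8 to 31.3 CPM, of which Pdgfrb made up nearly all, at a mean of 0.699 CPM and 29.3 CPM, while Col1a1, Dcn and Lum had means of 0.553, 0.135 and 0.108 CPM in EtOH differentiation medium. The part of all these markers in the differences between media was not tested.

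The sequence upstream of the start site is shown for 3 of the genes that rose in differentiation medium, an Id gene, a ligand and an inhibitory SMAD, so that the BMP-type SMAD motifs can be read beside them. Of the 10 genes, 6 had a promoter entry in the RefSeq table used (build GRCm38.p6). The motifs searched on both strands were GGCGC and GGCCG, the GC-rich kind bound by SMAD1 and SMAD5, and CAGAC, the SMAD-binding element, and matches may overlap. Each run is the 250 bases before the RefSeq start, on the strand of the gene, and capitals mark every match.
Id4: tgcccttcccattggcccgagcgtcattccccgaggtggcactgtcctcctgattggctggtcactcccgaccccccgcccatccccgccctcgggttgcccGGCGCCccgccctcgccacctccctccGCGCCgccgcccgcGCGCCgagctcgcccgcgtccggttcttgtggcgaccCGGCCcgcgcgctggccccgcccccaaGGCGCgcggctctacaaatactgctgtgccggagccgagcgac
Bmp4: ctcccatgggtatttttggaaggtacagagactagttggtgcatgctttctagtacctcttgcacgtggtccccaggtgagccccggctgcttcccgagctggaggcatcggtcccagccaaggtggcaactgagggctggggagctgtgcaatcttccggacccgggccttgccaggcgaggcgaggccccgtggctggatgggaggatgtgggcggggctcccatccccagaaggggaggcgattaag
Smad6: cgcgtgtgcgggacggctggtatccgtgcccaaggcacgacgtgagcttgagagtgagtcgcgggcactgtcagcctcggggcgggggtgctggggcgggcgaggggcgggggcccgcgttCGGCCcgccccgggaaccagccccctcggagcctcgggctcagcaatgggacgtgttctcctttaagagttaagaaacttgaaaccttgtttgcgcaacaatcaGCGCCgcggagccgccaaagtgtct
These windows lie at chr13:48260866-48261115 (plus strand), chr14:46390670-46390919 (minus strand) and chr9:64022060-64022309 (minus strand). Id4 held 6 matches, 5 of them GGCGC, Smad6 held 2 and Bmp4 held 0. Among 32851 promoter windows of the same length, 32.0% held GGCGC, 30.4% held GGCCG and 42.2% held CAGAC. A match describes letters and is no evidence of binding, and the absence of one in the Bmp4 window covers these 250 bases alone. The windows of Bmpr1a, Id3 and Id2 held 5, 4 and 3 matches. They lie inside the gene bounds given above, since the RefSeq start used for these genes is not the outer end of the GENCODE gene.

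The second comparison asked what 7 days of 4HBP did in proliferation medium. None of the 10 genes passed the test, where 7.43% of the 14448 genes tested passed (540 higher and 533 lower by edgeR). At an unadjusted p under 0.05, 3 of the 10 passed (Bmp4, Nog and Id4), beside 3621 of all genes. One fit over all 11 libraries, which shares its estimate of the spread with the less variable differentiation libraries, passed 2 of the 10, Bmp4 and Nog. DESeq2 and limma-voom on the 6 libraries passed 0 of the 10. The share of all genes passing in these alternatives is not given here.

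In CPM, 4 of the 10 genes lay lower in every 4HBP library than in any control, Bmp4, Nog, Bmpr1a and Smad7. Id2 lay higher in every 4HBP library. Of these genes, only Nog and Bmpr1a stayed apart in TPM. Bmp4 overlapped there, at 4.03 to 15.22 TPM with 4HBP and 11.64 to 20.45 TPM with EtOH, as did Smad7 and Id2. Bmp4 stood at 5.06, 4.67 and 5.28 CPM with 4HBP and at 8.03, 7.95 and 5.78 CPM with EtOH, so that the groups did not overlap although EtOH replicate 3 came close. The log2 change was -0.57 (SE 0.17, interval -0.94 to -0.19, adjusted p = 0.072 by edgeR). Leaving out EtOH replicate 3 gave -0.70 (adjusted p = 0.038 by edgeR), and leaving out 4HBP replicate 3, which stood apart, gave -0.58 (adjusted p = 0.078 by edgeR). Nog stood at 2.13, 2.38 and 2.54 CPM against 3.82, 3.24 and 3.53 CPM, also without overlap, on 45 to 80 counts per library. Its log2 change was -0.62 (SE 0.19, interval -1.04 to -0.20, adjusted p = 0.079 by edgeR), and -0.65 (adjusted p = 0.081) without 4HBP replicate 3. In the fit over all 11 libraries the adjusted p was 0.006 for Bmp4 and 0.029 for Nog.

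The Id genes spread widely between the proliferation libraries. Id1 was 28.3, 28.2 and 23.8 CPM with 4HBP and 21.02, 15.5 and 27.2 CPM with EtOH. Id3 was 51.2, 56.4 and 34.2 CPM against 39.3, 29.9 and 48.6 CPM. In both genes the groups overlapped, 4HBP replicate 3 was the lowest of its group and EtOH replicate 3 the highest of its own. The log2 changes were 0.31 for Id1 (SE 0.19, adjusted p = 0.351 by edgeR) and 0.24 for Id3 (SE 0.21, adjusted p = 0.539 by edgeR). Leaving out 1 library at a time gave 0.13 to 0.53 for Id1 and 0.08 to 0.45 for Id3, with no call. Both were lowest without EtOH replicate 2, and without 4HBP replicate 3 they were 0.41 (adjusted p = 0.192) and 0.45 (adjusted p = 0.104).

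Id2 was 160, 165 and 180 CPM with 4HBP against 158, 150 and 149.6 CPM with EtOH. Its groups did not overlap, but the difference of 0.11 (interval -0.04 to 0.25, adjusted p = 0.347 by edgeR) did not pass the test. Id4 was 36.8, 35.6 and 42.7 CPM against 42.6, 51.5 and 39.6 CPM, with overlap, and differed by -0.25 (SE 0.11, interval -0.50 to -0.01, adjusted p = 0.190 by edgeR), and by -0.13 without EtOH replicate 2. Id1, Id2 and Id3 thus had positive values and Id4 a negative one.

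Bmpr1a was 338, 321 and 334 CPM with 4HBP against 344, 343.6 and 364 CPM, without overlap, at a log2 change of -0.12 (interval -0.28 to 0.05, adjusted p = 0.360 by edgeR). Smad7 was 6.67, 6.81 and 4.56 CPM against 6.93, 7.52 and 7.78 CPM, without overlap, at -0.33 (interval -0.75 to 0.09, adjusted p = 0.314 by edgeR), and at -0.14 without 4HBP replicate 3. Smad6, with 10, 16 and 1 counts against 14, 13 and 10 counts, and Bmp2, with 4, 9 and 14 counts against 13, 3 and 15 counts, had intervals from -1.93 to 0.97 and from -1.63 to 1.16. No difference in these 2 genes was detectable at this depth. In all, the groups were apart in CPM for 5 of the 10 genes, beside 31.9% of all genes tested.

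Markers of other cells also moved in this comparison. The 4 astrocyte markers summed to 2264 to 2756 CPM with 4HBP and to 3417 to 4255 CPM with EtOH, without overlap, and Gfap, Aqp4 and Aldoc passed the test as lower. The oligodendrocyte lineage markers summed to 1360 to 2079 CPM against 1871 to 2304 CPM, and the neural stem cell markers to 4401 to 4835 CPM against 4262 to 5051 CPM, both with overlap. The part of these markers in the values of Bmp4 and Nog was not tested.

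The third comparison made the same contrast in differentiation medium, where the libraries varied less. Id3 was the only one of the 10 genes to pass the test, where 2.56% of the 15478 genes tested passed. Id3 stood at 84.3, 83.2 and 84.9 CPM with 4HBP and at 66.9 and 71.9 CPM with EtOH, so that every 4HBP library was above both controls. It rose by 0.28 on the log2 scale (SE 0.04, interval 0.19 to 0.38, adjusted p = 0.0031 by edgeR), a 1.22-fold difference. The call was lost without EtOH replicate 1 (0.23, adjusted p = 0.091), which left 1 control assumed to vary like the 4HBP group. It was also lost in the fit over all 11 libraries (0.29, adjusted p of 1), which carries the wider spread of the proliferation libraries.

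The other Id genes moved little, but none overlapped between groups. Id1 was 32.4, 30.8 and 32.5 CPM against 26.7 and 28.0 CPM, a log2 change of 0.23 (SE 0.06, interval 0.10 to 0.36, adjusted p = 0.067 by edgeR). Id2 was 178, 182 and 180.0 CPM against 164 and 174 CPM, at 0.10 (adjusted p = 0.219 by edgeR). Id4 was 151, 148 and 142 CPM against 163 and 154 CPM, at -0.10 (adjusted p = 0.219 by edgeR). As in proliferation medium, Id4 had the opposite sign to the other 3, but only Id3 passed the test.

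The ligands, receptor and inhibitors showed no call. Bmp4 was 59.4, 56.1 and 55.6 CPM against 54.0 and 53.0 CPM, at 0.10 (SE 0.05, interval -0.003 to 0.20, adjusted p = 0.331 by edgeR), with every 4HBP library above both controls in CPM. In TPM its groups overlapped and the 4HBP mean was the lower one, at 100.8 against 108.9 TPM. The intervals for Bmpr1a (-0.10 to 0.08), Smad7 (-0.25 to 0.15) and Nog (-0.33 to 0.31) included 0, as did the wider ones for Smad6 (-0.59 to 0.47) and Bmp2 (-0.89 to 0.54). The groups were apart in CPM for 5 of the 10 genes, beside 33% of all genes tested. The astrocyte markers summed to 3552 to 3894 CPM with 4HBP and 3656 to 3908 CPM with EtOH here, with overlap. Among the neural stem cell markers, Fabp7 rose by 0.23 with 4HBP (adjusted p = 0.017 by edgeR, groups apart) and Vim had a log2 change of -0.14 (adjusted p = 0.054 by edgeR, groups apart). The part of these markers in the Id3 value was not tested. The plot of the 4HBP effects shows both media.

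**Figure D3:**
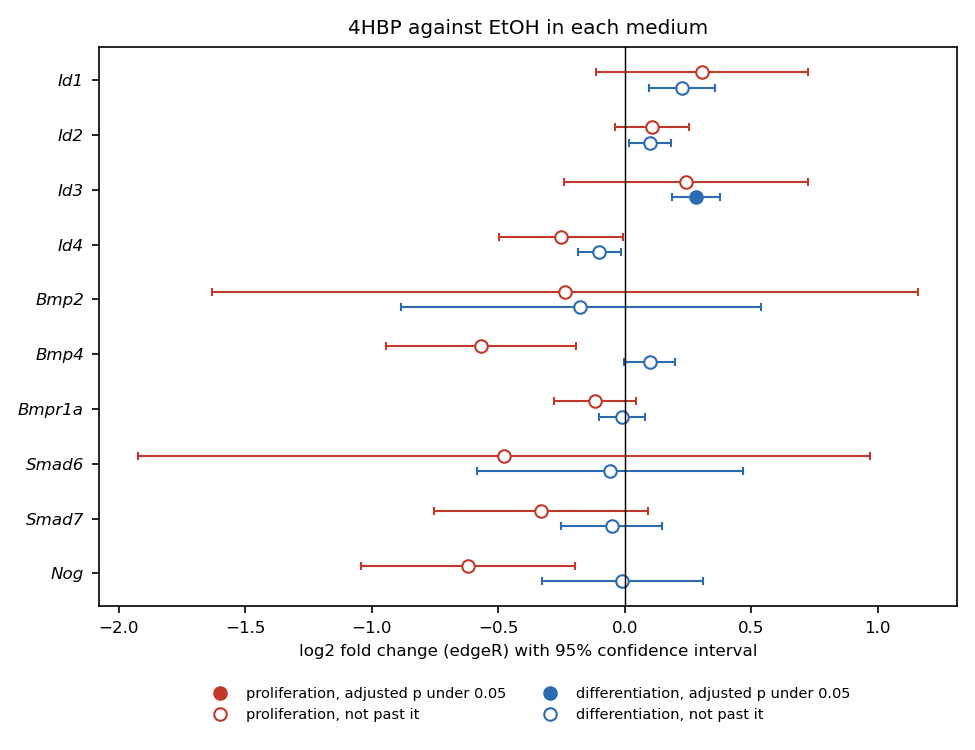
Log2 fold change of 4HBP against EtOH (x axis) for each of the 10 genes, in proliferation medium (red, 3 against 3 libraries) and differentiation medium (blue, 3 against 2 libraries), with 95% confidence intervals; filled points passed an adjusted p of 0.05. Id3 in differentiation medium, at 0.28, is the only filled point, and the intervals in proliferation medium are wider for every gene.

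Whether 4HBP acted differently in the media was tested directly, as the 4HBP effect in proliferation medium minus that in differentiation medium in one fit of all 11 libraries. One of the 10 genes passed, where 4.49% of the 15920 genes tested passed. This was Bmp4, with a difference of -0.67 (SE 0.15, interval -1 to -0.35, adjusted p = 0.026 by edgeR) between effects of -0.57 and 0.10. The fit shares its estimate of the spread with the less variable differentiation libraries. Its SE was below that of the proliferation effect alone (0.17), so the call may be overstated. In TPM the mean of Bmp4 was lower with 4HBP in both media. The value kept its sign without any single library (-0.81 to -0.60), but the call was lost in 8 of these 11 fits, with an adjusted p of up to 0.119. Nog had a similar difference of -0.62 (SE 0.24, adjusted p = 0.176 by edgeR) that did not pass. The differences of the 4 Id genes ran from -0.16 for Id4 to 0.07 for Id1. For Id3, the gene called in differentiation medium, the difference was -0.05 (interval -0.63 to 0.53, adjusted p = 0.948 by edgeR), so its effect was not shown to differ between the media. Among the cell type markers, Gfap (-0.68), Aqp4 (-0.74) and Fabp7 (-0.59) also passed, with adjusted p of 0.019, 0.014 and 0.020 by edgeR. Aldoc (-0.65) and S100b (-0.48) did not pass, nor did any other marker tested, and those others had both signs. The part of these markers in the Bmp4 difference was not tested.

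The 44 other pathway genes were read by role, and 16 of them did not pass the filter on low counts in the proliferation comparison of 4HBP with EtOH. Of the 28 tested there, 2 were higher and 2 lower with 4HBP (background 7.43%), and their median log2 change was 0.06, against 0.001 for all genes. Hey1, a transcriptional repressor induced by BMP and by Notch signals, was 88.0, 104 and 119 CPM against 62.8, 70.4 and 60.8 CPM and rose by 0.65 (SE 0.10, adjusted p = 0.010 by edgeR). Nbl1, a secreted antagonist of the DAN family, was 30.0, 29.8 and 38.1 CPM against 23.2, 21.7 and 23.4 CPM and rose by 0.49 (SE 0.10, adjusted p = 0.027 by edgeR). Both were higher in every 4HBP library than in any control.

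Bmper, a secreted BMP-binding regulator, was 9.70, 9.28 and 13.1 CPM with 4HBP against 14.4, 18.6 and 16.0 CPM and fell by 0.65 (SE 0.15, adjusted p = 0.038 by edgeR). Bmpr1b, the other BMP-selective type I receptor, was 61.1, 52.4 and 68.3 CPM against 84.4, 94.4 and 72.8 CPM and fell by 0.50 (SE 0.11, adjusted p = 0.033 by edgeR). Neither overlapped between groups. Without 4HBP replicate 3 the values were 0.56 for Hey1, 0.39 for Nbl1, -0.79 for Bmper and -0.57 for Bmpr1b, all still past the threshold, and 7 of the tested genes passed in place of 4. Over the 6 fits that left out 1 library, Hey1 passed in 5, Nbl1 in 3, Bmpr1b in 2 and Bmper in 1, the one without 4HBP replicate 3. These fits gave 0 to 7 calls, 0 of them without EtOH replicate 1 and 1 without either EtOH replicate 2 or 4HBP replicate 2. The share of all genes passing in each of these fits is not given here, so the counts are no result about the pathway.

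None of the 30 pathway genes tested in differentiation medium passed for 4HBP (background 2.56%) by edgeR, DESeq2 or limma-voom. At an unadjusted p under 0.05 by edgeR, 4 of the 30 passed, beside 2462 of all 15478 genes tested. The difference between the 4HBP effects in the 2 media passed for 3 of the 30 (background 4.49%), which were Hey1 at 0.66 (SE 0.12), Nbl1 at 0.65 (SE 0.13) and Bmper at -0.92 (SE 0.20), with adjusted p of 0.011, 0.017 and 0.021 by edgeR. For Bmpr1b it was -0.51 (adjusted p = 0.070 by edgeR). In differentiation medium Hey1 was 143, 139 and 141 CPM with 4HBP against 144 and 143 CPM with EtOH. The E proteins Tcf3, Tcf4 and Tcf12, the partners that Id proteins bind, had 4HBP effects of -0.14 to 0.08 during proliferation and of -0.05 to 0.04 in the other medium, and none passed.

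Between media in EtOH, 22 of the 30 pathway genes tested passed, 10 higher and 12 lower in differentiation medium (background 61.4%). All 3 target genes tested other than Id genes rose. Msx1, at 5 to 7 counts per EtOH proliferation library, passed the filter only through the differentiation libraries, so its rise was favoured by the filter. The homeobox gene Msx1 went from 0.302 ± 0.056 (SD, n = 3) to 3.66 ± 0.014 CPM (SD, n = 2), Atoh8, a basic helix-loop-helix gene, from 0.922 ± 0.154 to 8.41 ± 0.351 CPM, and Hey1 from 64.7 ± 5.02 to 144 ± 0.865 CPM. All 3 E proteins fell, Tcf12 by 0.86, Tcf3 by 0.64 and Tcf4 by 0.44 on the log2 scale (adjusted p of 1.8e-07, 2.1e-05 and 1.8e-05 by edgeR).

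The remaining roles were mixed. Among ligands, Bmp6 went from 3 to 9 counts per library to 481 to 544 counts, whereas Bmp7 fell by 1.91 (SE 0.17) from 20.1 to 5.69 CPM. Bmp6, like Msx1, passed the filter only through the differentiation libraries. Among the signalling SMADs, Smad9 rose by 1.63 (SE 0.23), Smad1 and Smad5 fell by 0.54 and 0.30, and Smad4 did not pass at 0.02. Among antagonists, Nbl1 rose by 2.55 (SE 0.10), Chrdl1, a chordin-like BMP binder, fell by 2.92 (SE 0.12), and Twsg1 fell by 0.49. Each of these calls had an adjusted p of 0.0025 or lower by edgeR. Among the 7 receptors and co-receptors tested, Acvr2b and Rgmb rose and Bmpr1b, Bmpr2, Acvr2a and Rgma fell relative to the library total. In TPM the mean of Bmpr1b in EtOH was instead higher in differentiation medium, at 28.5 against 25.2 TPM. Bmpr2 (18.3 against 19.3 TPM), Acvr2a (6.625 against 7.297 TPM) and the antagonist Twsg1 (30.2 against 31.5 TPM) differed little there. Rgma was lower in TPM too, at 119 against 177 TPM. The intracellular inhibitors Smurf1 and Skil rose by 0.69 and 0.36. With 4HBP present, 25 of the 30 passed (12 higher and 13 lower, background 67.2%). Here 4 genes passed that did not pass in EtOH, and 1 that passed in EtOH did not. The 4 were Chrd, the antagonist chordin, at 1.31 (SE 0.28), Bmper at 0.76 (SE 0.13), Smad4 at -0.14 (SE 0.05) and Fst, follistatin, at -1.22 (SE 0.40), whose groups overlapped and whose call was lost in 3 of the 6 fits without 1 library, and the 1 was Bmpr1b, at 0.20 (adjusted p = 0.084 by edgeR). The plot of the other pathway genes gives the 4HBP effect in proliferation medium beside the difference between media in EtOH.

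**Figure D4:**
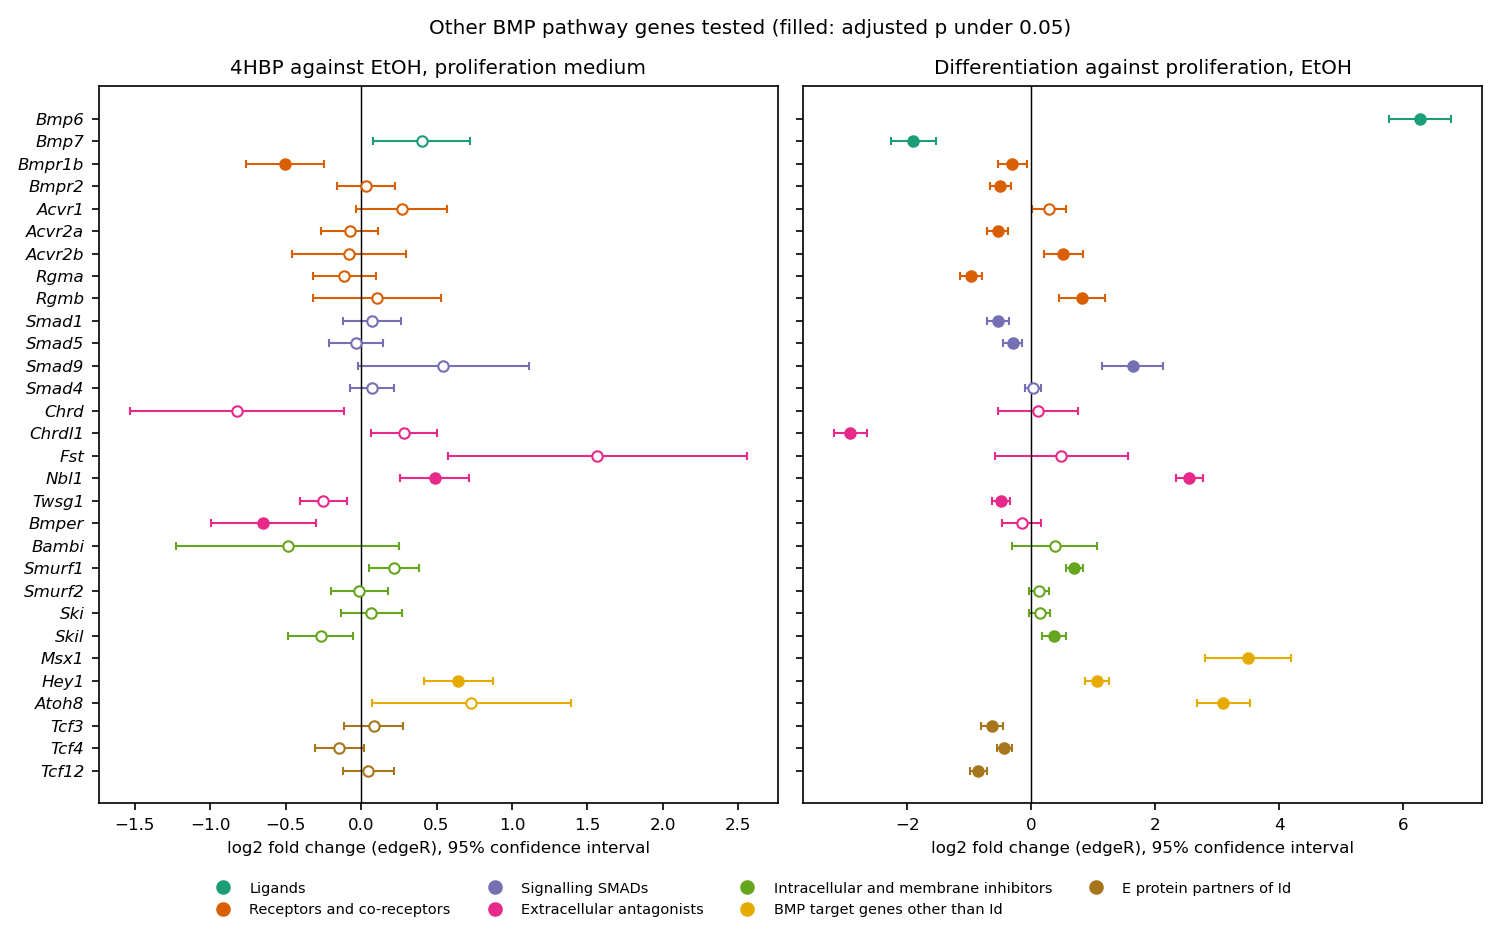
Log2 fold change with 95% confidence interval (x axes, different scales) for the other pathway genes tested, coloured by role; left, 4HBP against EtOH in proliferation medium; right, differentiation against proliferation medium in EtOH. Filled points passed an adjusted p of 0.05, which 4 of 28 genes did on the left and 22 of 30 on the right.

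The genes whose profile over the 11 libraries lay nearest to each Id gene were found by the root mean square distance of log2 CPM, centred on each gene, over 15910 genes. For Id1 they were Srm (0.07) and Mrto4 (0.12), for Id2 Rbsn (0.04), for Id3 Mtfp1 (0.13) and Tnfrsf12a (0.15), and for Id4 Ankrd44 (0.06) and Pink1 (0.08). The search left out the set of genes described here, so it could not return an Id gene. Within that set, Id1 and Id2 lay nearest to each other (0.248). Id3 lay nearest to Id1 (0.29) and Id4 to Nog (0.374). Each of these distances was larger than those to the genes named above. The distances are descriptions over libraries that share media and treatment.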

How the data were processed

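RNA was sequenced in 11 libraries. Per the labels and the study's methods, the authors trimmed reads with cutadapt, checked them with FastQC (0.11.5) and aligned them to GRCm38 (mm10) with Bowtie2 (2.2.9) within RSEM (1.3.0). The deposited tables give, per gene, RSEM expected counts and TPM. The kit was stranded, and whether counting used strand was not given in the sources used here.

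Expected counts were rounded and tested with edgeR (4.0.16) after filterByExpr and TMM scaling. 4HBP was compared with EtOH within each medium, because the biological coefficient of variation was 0.117 in proliferation and 0.0368 in differentiation medium. Differences between media, and the difference between 4HBP effects, used all 11 libraries, at 1 shared coefficient of 0.0907. A gene passed at a Benjamini-Hochberg adjusted p under 0.05 over all genes tested. The study's own method, limma (3.58.1) on log2(CPM + 1) calling genes by raw p (below 0.05) together with a log2 change past 0.58 in size, was an alternative, as were DESeq2 (1.42.0) and others below.

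The 10 genes, the 44 pathway genes and the markers were chosen with earlier results of these data known. All 10 are named. Pathway genes are named when they passed, up to 2 per role and direction by size of change, and Hey1, Tcf4, Smad4, Bmpr1b, Bmpr2 and Bmper are given between media to complete their groups, chosen after their values were seen, as were single markers. The 2 nearest profiles were sought for each Id gene, and 1 of them is not reported here. Replicate numbers showed no sign of pairing libraries. Correlations of deviations were -0.123 to 0.0795 for equal numbers and -0.0823 to 0.111 for different ones. With 2 or 3 libraries per group this cannot establish that there was no pairing.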

Additional observations from a re-analysis of the deposited data

Results flagged for a closer look

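In 4 genes the effect of 4HBP differed between the media by a test of the difference itself (edgeR, adjusted p under 0.05, effect in proliferation medium minus effect in differentiation medium). Bmp4 differed by -0.67, a value whose call was lost in 8 of the 11 fits that left out 1 library. Nbl1 differed by 0.65 and passed in 8 of the 11 fits, with an adjusted p of up to 0.107. Bmper differed by -0.92 and passed in 5 of the 11 fits, with an adjusted p of up to 0.128. Hey1 differed by 0.66 and passed in 9 of the 11 fits, with an adjusted p of up to 0.064. These 4 were among 715 of the 15920 genes tested (4.49%). The markers Gfap, Aqp4 and Fabp7 passed as well, each with a negative difference, and their part in these values was not tested. The test shares its estimate of the spread between the more variable proliferation and the less variable differentiation libraries, which limits these calls.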

How the results depend on the processing

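Over all alternatives, fits without 1 library included, single-gene values kept direction and side of the threshold in 1265 cases, lost a call in 73, gained one in 14 and changed sign in 35, all of the last in values that were not called except 1. The exception was Bmpr1a between media under 4HBP, at 0.021 by limma on log2(TPM + 1), an alternative chosen after seeing the data. On that scale 9 of the 10 genes passed in either comparison of media, Id1 (0.69) and Id2 (0.46) in EtOH among them, and 6 and 7 passed once each library was centred on its median gene.

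For the 10 genes and 4HBP, the fit over all 11 libraries called 2 in proliferation and 0 in differentiation medium, no filter on low counts called 2 in differentiation medium, and the study's limma rule called 0 there and 0 for the difference between media. For the other pathway genes in proliferation medium, the limma rule called 2, the fit over all 11 libraries 10 and the replicate block 2. In differentiation medium no filter called 2 and the replicate block 2. The limma rule called 5 for the difference between effects, 12 between media in EtOH and 14 under 4HBP. Counts called under the alternatives, here and above, are given without the share of all genes called under the same setting. They show how the calls move and are no result about the pathway.

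Without 1 library, the 10 genes gave 0 to 1 calls for 4HBP in either medium and for the difference, 7 to 9 between media in EtOH and 7 to 8 under 4HBP. The pathway genes gave 0 to 7 and 0 to 1 for 4HBP, 0 to 5 for the difference, 21 to 24 and 24 to 25. In proliferation medium Bmp2 ran from -0.672 to 0.137 and Smad6 from -1.175 to 0.062. In differentiation medium Bmpr1a ran from -0.074 to 0.062, Smad6 from -0.303 to 0.12, Smad7 from -0.147 to 0.002 and Nog from -0.154 to 0.11. For the difference between effects Id1 ran from -0.112 to 0.293, Id2 from -0.054 to 0.046, Id3 from -0.211 to 0.161, Bmp2 from -0.504 to 0.301 and Smad6 from -1.135 to 0.116.

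The replicate block used numbers that showed no sign of pairing the libraries. It gave 0.001 for Smad7 and 0.094 for Nog in differentiation medium, and 0.005 for Id2 and 0.212 for Bmp2 in the difference. For the difference Id2 was also 0.046 on library totals and 0.044 by the limma rule, and Bmp2 0.041 by that rule and 0.067 by limma-voom with weights by medium. The causes were not tested. Depth limits Smad6 and Bmp2, at 1 to 16 counts in proliferation medium.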
